A study of Mus musculus with 3 samples.

Results

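The 40 genes described here encode the actin cytoskeleton of the macrophage and its podosomes: the cytoplasmic actins, the proteins that bind actin monomers, the machinery that nucleates, caps, cuts, bundles and contracts filaments, and the adaptors that tie filaments to integrins. They were taken by name from a list that was chosen with earlier results of these data known. All 40 were found among the 55536 genes of the gene tables. Polyadenylated RNA was sequenced from 3 primary cultures of bone marrow-derived C57BL/6J mouse macrophages, recorded as separate biological samples of 1 donor record. Every culture carried the same label, lipid A at 100 ng/ml for 0 minutes, lipid A being the lipid anchor of endotoxin and the ligand of Toll-like receptor 4, so all 3 libraries form 1 unstimulated group and no contrast between conditions exists. Age and sex were not recorded, and nothing in the labels says whether different animals were used. The spread given below is therefore the spread between these libraries, and no test was run.

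Actin cycles between a monomer, held in reserve by thymosins and fed to growing ends by profilin, and a filament, which cofilin takes apart. The Arp2/3 complex, switched on by WASP and WAVE proteins, starts new filaments as branches on old ones, and capping proteins stop the growing ends. Macrophages use this system to crawl and to engulf particles, and they build podosomes, adhesions with a core of branched actin and WASP and a ring of talin, vinculin and paxillin around integrins.

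Library totals were 27946047, 29779380 and 53447427 expected counts in replicates 1, 2 and 3, where an expected count is the number of reads a program assigns to a gene after dividing reads that match several transcripts. The smallest member total in any library was 847 expected counts, so counting error was small beside the spread between libraries. TPM is the abundance of a transcript after its reads are divided by its length, so TPM levels of different genes can be compared. A gene is called detected here where no library had it below 1 TPM. All 8 macrophage markers, such as Cd68 and Csf1r, were detected, and 0 of 10 smooth muscle and fibroblast markers and 0 of 6 skeletal and cardiac muscle markers were. In RNA from a whole culture, fewer cells of a type and less RNA per cell cannot be told apart. Replicate 3 stood apart in its shares of TPM by transcript, as described below. The members' median CV, their folds between libraries and their median log2 ratios are given with and without it, while mean TPM values include it.

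The members were among the most abundant transcripts of the cells. All 40 were detected, and 32 of 40 had at least 100 TPM in each of the libraries, against 8.12% of the 10548 detected genes. The median of the members' mean levels was 333 TPM, against 18.6 TPM over the detected genes. As the members were chosen with earlier results of these data known, these comparisons describe the chosen genes and test nothing. Together the members took 3.94%, 2.69% and 2.44% of all TPM in replicates 1, 2 and 3. Nuclear protein-coding genes as a whole held 79.8%, 86.1% and 70.8% of TPM in these libraries, and of that part alone the members took 4.95%, 3.13% and 3.44%. Replicate 1 was highest on both reckonings, while the order of replicates 2 and 3 depended on the reckoning. These sums rest heavily on few genes. Of 39446 TPM in replicate 1, 15798 came from the 3 genes of monomer-binding proteins and 8201 from both actins. In replicate 3 it was 7969 and 4016 of 24373 TPM.

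**Figure D1:**
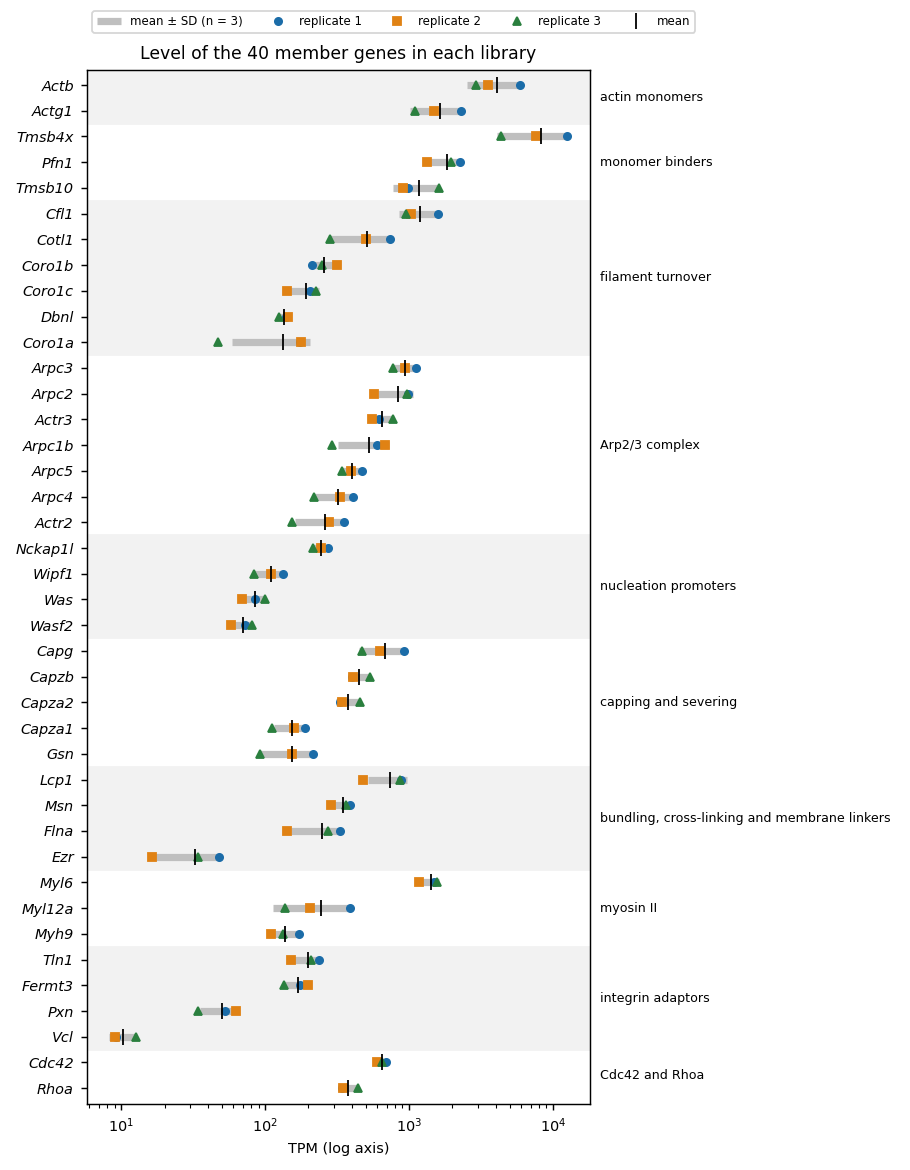
Level of each member in TPM (log axis) in replicates 1, 2 and 3 (points), with the mean (tick) and SD (grey bar), grouped by role. Tmsb4x, at a mean of 8210 TPM, and Vcl, at 10.3 TPM, mark the ends of the range, and 32 of the 40 members have all their points at 100 TPM or above.

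Actin itself came from both cytoplasmic genes. Actb, which encodes beta-actin (chromosome 5, 142903115 to 142906754, minus strand, build mm10, as for all positions of genes given here), had 5886, 3526 and 2924 TPM in replicates 1, 2 and 3, a mean of 4112 ± 1566 TPM (SD, n = 3), and ranked 26 among all genes. Actg1, which encodes gamma-actin (chromosome 11, 120345690 to 120348542, minus strand), had 2315, 1495 and 1092 TPM, a mean of 1634 ± 623 TPM. Both genes were highest in replicate 1. Replicate 3 was lowest in these tables and on scaled counts, but in the kallisto-format tables, a second deposited set of TPM made with a different program, both were lowest in replicate 2 (Actb at 4238, 2521 and 2726 TPM, Actg1 at 1590, 1025 and 1183 TPM). Actb over Actg1 was 2.54, 2.36 and 2.68, a mean of 2.53 ± 0.16 (SD, n = 3). The actin genes of muscle were all but silent. Acta1 and Actc1, of skeletal and cardiac muscle, were listed at 0 TPM in every library, and Acta2, of smooth muscle, was at 1.12, 0.46 and 0.41 TPM.

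The cytoplasmic actins differ at only a few residues near the amino terminus, yet their messages are distinct enough to be counted apart. Over 1125 coding bases of the transcripts Actb-201 and Actg1-202, 88.6% were identical and the longest identical run was 62 bases. The first 90 coding bases of each are shown here because they include the part where the proteins differ, and capitals mark the 16 positions at which these bases differ, read 5′ to 3′ from the transcripts of GENCODE M21.
Actb: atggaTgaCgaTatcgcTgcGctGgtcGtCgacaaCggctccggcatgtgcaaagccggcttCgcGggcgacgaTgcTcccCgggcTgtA
Actg1: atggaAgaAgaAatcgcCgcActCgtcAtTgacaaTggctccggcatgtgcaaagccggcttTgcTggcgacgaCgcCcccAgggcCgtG
The deposited posterior SD, which measures how uncertain the division of shared reads was, came to at most 0.0002% of the Actb count and 0.388% of the Actg1 count in any library.

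Transcripts of proteins that bind actin monomers were also among the most abundant. The 3 members of this role summed to 15798, 9911 and 7969 TPM in replicates 1, 2 and 3, against 8201, 5020 and 4016 TPM for both actins. Tmsb4x, which encodes the main monomer-sequestering peptide thymosin beta-4 (chromosome X, 167207093 to 167209315, minus strand), had 12571, 7672 and 4387 TPM in replicates 1, 2 and 3, a mean of 8210 ± 4118 TPM, and ranked 17 among all genes. Its paralog Tmsb10 (chromosome 6, 72957347 to 72958748, minus strand) had 976, 915 and 1628 TPM, a mean of 1173 ± 395 TPM. The genes ran in opposite directions, with Tmsb4x lowest and Tmsb10 highest in replicate 3, so Tmsb4x over Tmsb10 was 12.9, 8.39 and 2.69. Against both actins summed, Tmsb4x stood at 1.53, 1.53 and 1.09, a mean of 1.38 ± 0.25 (SD, n = 3). Profilin-1, the gene Pfn1 (chromosome 11, 70651850 to 70654644, minus strand), which hands monomers to growing ends, had 2251, 1324 and 1954 TPM, a mean of 1843 ± 474 TPM. Its paralogs were nearly absent: Pfn2 averaged 2.55 TPM, Pfn3 was listed at 0 and Pfn4 averaged 0.07 TPM.

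The thymosin messages that ran in opposite directions are much less alike than the actin messages. Their 132 coding bases, from Tmsb4x-201 and Tmsb10-203, were 69.7% identical with a longest identical run of 10 bases, and they are shown whole because these short open reading frames are the whole of both peptides. Capitals mark the 40 positions that differ.
Tmsb4x: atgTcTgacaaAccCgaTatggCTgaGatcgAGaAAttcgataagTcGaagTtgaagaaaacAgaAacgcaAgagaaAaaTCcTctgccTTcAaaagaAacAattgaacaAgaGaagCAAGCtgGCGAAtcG
Tmsb10: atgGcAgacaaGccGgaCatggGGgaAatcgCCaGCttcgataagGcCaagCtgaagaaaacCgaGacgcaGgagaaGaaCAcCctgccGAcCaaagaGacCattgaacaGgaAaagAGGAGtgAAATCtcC

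Among the genes of filament turnover, cofilin-1 stood far above the rest. Cfl1, whose product severs and disassembles filaments, had 1582, 1039 and 949 TPM in replicates 1, 2 and 3, a mean of 1190 ± 342 TPM. The related Dstn (destrin) averaged 126 TPM and Cfl2 18.3 TPM, so Cfl1 over Dstn was 13.2, 7.61 and 7.86. Cofilin is kept in check by LIM kinases and released by slingshot phosphatases, and 14 of the 15 genes of a list of this cycle were detected (median 50.9 TPM). Cotl1, whose coactosin-like product binds filaments, had 735, 504 and 284 TPM and was lowest in replicate 3. Dbnl, which encodes the drebrin-like adaptor mAbp1, had 139, 144 and 124 TPM. On counts scaled for library size it was the steadiest member, with a coefficient of variation (CV, the SD as a percent of the mean) of 3.56%.

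The coronins, which work with cofilin and Arp2/3 at branch points, did not keep step with each other. Coro1a, the leukocyte coronin (chromosome 7, 126699773 to 126707787, minus strand), had 174, 177 and 47.2 TPM in replicates 1, 2 and 3. Coro1b had 210, 314 and 249 TPM. Coro1c had 206, 142 and 226 TPM. Coro1a was furthest below Coro1b in replicate 3 (Coro1a over Coro1b was 0.83, 0.56 and 0.19), and it was the least steady member, with a CV of 52.6% on scaled counts and a highest-over-lowest fold of 3.37. Without replicate 3 its CV was 2.58% and its fold 1.04. Of the other coronins, Coro7 averaged 72.8 TPM, Coro2a 27.7 TPM and Coro2b 3.00 TPM, and Coro6 was listed at 0.

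All 7 member subunits of the Arp2/3 complex were abundant, within one order of magnitude of each other although the assembled complex holds its subunits in equal number. From the highest mean to the lowest they were Arpc3 at 944 ± 174 TPM, Arpc2 at 839 ± 233, Actr3 at 650 ± 116, Arpc1b at 524 ± 203, Arpc5 at 401 ± 64.1, Arpc4 at 318 ± 95.8 and Actr2 at 262 ± 101 TPM (SD, n = 3). Actr2 was lowest in every library, and the highest subunit was Arpc3 in replicates 1 and 2 and Arpc2 in replicate 3. The highest over the lowest subunit came to 3.15, 3.40 and 6.26 in replicates 1, 2 and 3. Arpc2 had 981, 570 and 964 TPM and was low in replicate 2. Arpc1b had 600, 677 and 294 TPM and was low in replicate 3. Arpc3, with 1119, 943 and 771 TPM, and Arpc5, with 468, 394 and 341 TPM, were among the 5 members of lowest CV, at 9.65% and 9.53% on scaled counts.

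Where a subunit has alternative genes, 1 dominated. Arpc1b over Arpc1a was 10.3, 8.55 and 11.6, a mean of 10.2 ± 1.5, and Arpc5 over Arpc5l was 8.67, 9.49 and 9.00, a mean of 9.05 ± 0.41 (SD, n = 3 each). Arpc1a had 58.2, 79.2 and 25.3 TPM and was lowest in replicate 3, like Arpc1b. The other gene for actin-related protein 3, Actr3b, was below 1 TPM in every library, at a mean of 0.24 TPM.

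The activators of Arp2/3 were lower than the complex, with a median of 96.8 TPM over 4 members against 524 TPM over the 7 subunits. Was, which encodes the haematopoietic WASP (chromosome X, 8081453 to 8090498, minus strand), had 85.4, 68.7 and 100.1 TPM. Its partner Wipf1, which encodes the WASP-stabilising protein WIP, had 134, 109 and 83.7 TPM, so Wipf1 over Was was 1.57, 1.59 and 0.84. Wasf2, which encodes WAVE2, had 71.8, 57.6 and 81.6 TPM, while the genes for WAVE1 and WAVE3, Wasf1 and Wasf3, did not exceed 0.02 TPM. Nckap1l, which encodes HEM1, the haematopoietic subunit of the WAVE complex, had 275, 244 and 216 TPM and a CV of 6.83% on scaled counts, the second lowest. Its paralog Nckap1 had 3.58, 0.74 and 2.16 TPM. The ubiquitous counterpart of WASP, Wasl, averaged 8.90 TPM. Of the 16 genes listed for the WASP and WAVE complexes 12 were detected (median 31.1 TPM), from Nckap1l down to Wipf3, which did not exceed 0.01 TPM.

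**Figure D2:**
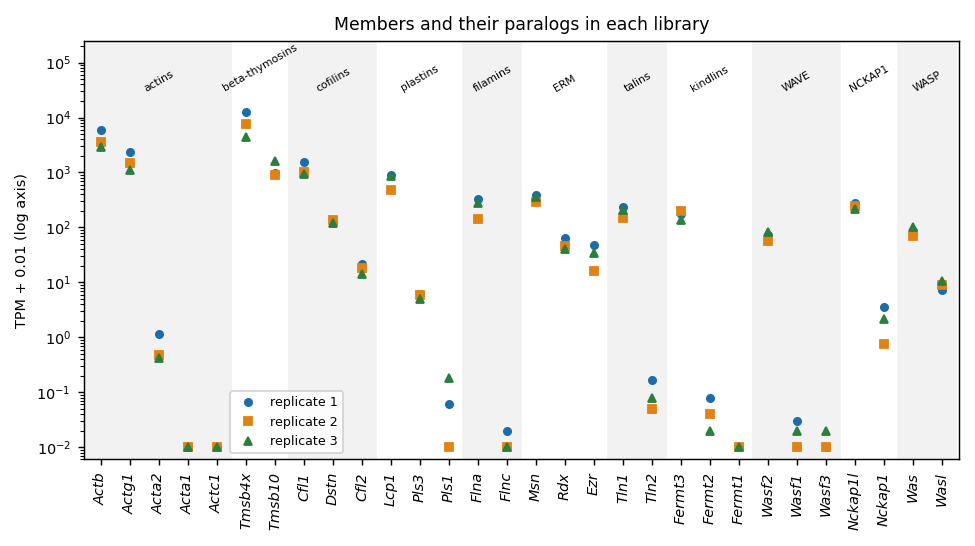
Members and their paralogs in TPM + 0.01 (log axis) in replicates 1, 2 and 3, by family, so that a gene listed at 0 sits at 0.01. In the kindlin, talin, WAVE and NCKAP1 families the first gene, a member, lies far above the others, while the ERM genes Msn, Rdx and Ezr lie closer together.

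Capping protein closes the fast-growing end of the filament as a pair of an alpha and a beta chain. Capza1 had 190, 160 and 112 TPM, Capza2 332, 345 and 455 TPM, and Capzb 400, 409 and 531 TPM in replicates 1, 2 and 3. The alpha genes together over the beta gene gave 1.31, 1.23 and 1.07, a mean of 1.20 ± 0.12 (SD, n = 3). In replicate 3, however, 265 of the 455 TPM of Capza2 lay on Capza2-206, a transcript of 517 bases. The ratio in that library therefore rests in part on that short transcript. Capza2 over Capza1 was 1.75, 2.16 and 4.08, but on scaled counts, which are not divided by length, it was 1.39, 1.72 and 1.62, so the excess in replicate 3 was in TPM and not in reads. Capg, a capping protein abundant in macrophages, had 925, 629 and 473 TPM, a mean of 675 ± 230 TPM. Gelsolin, the gene Gsn, whose product cuts and caps filaments when calcium rises, had 216, 153 and 92.1 TPM. Of the relatives of gelsolin, Scin averaged 0.41 TPM and Vil1 0.04 TPM, and Avil did not exceed 0.02 TPM, while Flii averaged 109 TPM and Svil 12.8 TPM.

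Bundling and linker genes were led by the leukocyte plastin. Lcp1, which encodes the bundling protein L-plastin (chromosome 14, 75131101 to 75230842, plus strand), had 886, 482 and 860 TPM, a mean of 743 ± 226 TPM. Lcp1 over Pls3 was 144, 82.5 and 174, and Pls1 averaged 0.07 TPM. Flna, which encodes the cross-linker filamin A (chromosome X, 74223461 to 74249820, minus strand), had 330, 141 and 275 TPM. Its muscle paralog Flnc did not exceed 0.01 TPM. Moesin and ezrin link filaments to the membrane: Msn had 390, 285 and 365 TPM, and Ezr had 47.5, 16.4 and 34.2 TPM, so Msn over Ezr was 8.21, 17.4 and 10.7. Lcp1, Flna, Msn and Ezr were all lowest in replicate 2, in Ezr by the widest margin among the linkers, with a CV of 46.7% on scaled counts.

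Non-muscle myosin II, the motor that contracts actin, was represented by its heavy chain and 2 kinds of light chain. The essential light chain gene Myl6 had 1502, 1174 and 1561 TPM, a mean of 1413 ± 208 TPM. The heavy chain gene Myh9 had 172, 110 and 133 TPM, so Myl6 over Myh9 was 8.74, 10.7 and 11.7, a mean of 10.4 ± 1.5 (SD, n = 3). The alternative heavy chain genes Myh10 and Myh14 averaged 1.45 and 0.02 TPM. The regulatory light chain gene Myl12a had 392, 205 and 137 TPM. Its neighbour and near-copy Myl12b had 427, 278 and 467 TPM, and their coding sequences (Myl12a-208 and Myl12b-201) were 96.5% identical over 516 bases with an identical run of 102 bases. The division of reads between these copies is uncertain to that extent, and the posterior SD of the Myl12a count was 0.672%, 0.832% and 1.01% of the count. Myl9, the smooth muscle copy, averaged 0.11 TPM.

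The integrin adaptors of the podosome ring were spread widely in level, with vinculin at the bottom of the whole set. Talin-1, the gene Tln1, which switches integrins on, had 238, 151 and 209 TPM, and Tln2 averaged 0.09 TPM. Fermt3, which encodes kindlin-3 of blood cells, had 176, 200 and 135 TPM with a CV of 9.10% on scaled counts, while Fermt2 averaged 0.04 TPM and Fermt1 was listed at 0. Paxillin, the gene Pxn, had 52.9, 62.9 and 33.9 TPM. Vinculin, the gene Vcl (chromosome 14, 20929398 to 21033676, plus strand), had 9.18, 9.09 and 12.7 TPM, the lowest level of any member. In TPM, Tln1 over Vcl was 25.9, 16.6 and 16.5. In replicate 3, however, 75.6 of the 209 TPM of Tln1 lay on Tln1-204, a transcript of 283 bases, and 40.5 TPM on Tln1-206. On scaled counts, which are not divided by length, Tln1 was at 1213, 755 and 617 and Vcl at 29.3, 28.7 and 50.5. Tln1 was thus lowest and Vcl highest in replicate 3 on counts, and the near-equal ratios of replicates 2 and 3 hold in TPM only. Ezr, at a mean of 32.7 ± 15.6 TPM, and Pxn, at 49.9 ± 14.7 TPM, came next above Vcl at 10.3 ± 2.05 TPM. Of the 15 listed integrin adaptors 10 were detected (median 37.1 TPM). Among them Lpxn, which encodes leupaxin, a leukocyte relative of paxillin, averaged 98.0 TPM and Zyx (zyxin) 88.3 TPM.

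Cdc42 and Rhoa, which set these machines in motion, were both high. Cdc42, which activates WASP, had 687, 596 and 649 TPM, a mean of 644 ± 45.9 TPM. Rhoa, which drives myosin contraction, had 341, 345 and 441 TPM, a mean of 376 ± 56.6 TPM. Rac1, which activates the WAVE complex, averaged 339 TPM, and Rac2, its haematopoietic relative, had 143, 222 and 517 TPM.

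Podosome genes that are not members were present with gaps. Of 15 listed scaffolds and kinases 13 were detected (median 46.8 TPM). The haematopoietic cortactin relative Hcls1 had 230, 182 and 303 TPM, against 3.43, 0.57 and 11.9 TPM for Cttn, which encodes cortactin itself. The Src-family kinase gene Lyn averaged 125 TPM, while Src averaged 1.79 TPM. Sh3pxd2b, which encodes the podosome scaffold TKS4, averaged 46.8 TPM and Sh3pxd2a, which encodes TKS5, 7.59 TPM. Ptk2b, which encodes the focal adhesion kinase relative PYK2, averaged 91.1 TPM and Ptk2, which encodes focal adhesion kinase, 3.35 TPM. The 13 formins and Ena/VASP proteins, which build unbranched filaments, had a median of 9.44 TPM, with Evl at 296 TPM as the highest.

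The members differed between libraries about as much as other genes. After scaling expected counts for library size by edgeR's trimmed mean of M values (TMM), the median CV of the members was 29.6%, against 28.4% over the 11886 genes kept by edgeR's filterByExpr and 29.1% over the 1194 of those with a mean of 100 TPM or more. Without replicate 3 the members' median CV was 16.5%. In 12 of 40 members the highest library was over 2-fold above the lowest on scaled counts, against 36.9% of the kept genes; among those at a mean of 100 TPM or more it was 11 of 35 members, against 37.5% of genes. On TPM rescaled to nuclear protein-coding genes it was 11 of 40 members, against 34.7% of genes. Without replicate 3 it was 2 members, and without replicate 1 or replicate 2 it was 7, where 2 libraries also leave less room for a range. Values over the kept genes with a library left out are not given here. The members' counts and median CV from such sets therefore describe the members alone.

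The 12 fell into different patterns. Tmsb4x (2.24-fold), Cotl1 (2.06-fold), Gsn (2.26-fold) and Myl12a (2.10-fold) were highest in replicate 1 and lowest in replicate 3. Coro1a (3.37-fold) and Arpc1b (2.26-fold) were high in replicates 1 and 2 and low in replicate 3. Lcp1 (2.24-fold), Arpc2 (2.16-fold), Coro1c (2.02-fold), Flna (2.60-fold) and Ezr (2.86-fold) were lowest in replicate 2. Tmsb10 (2.34-fold) was high in replicate 3 alone. Without replicate 3 the folds of Ezr and Flna were 2.87 and 2.60, those of Coro1a, Arpc1b and Tmsb10 were at most 1.08, and those of the other 7 lay between 1.43 in Coro1c and 1.93 in Myl12a. The 5 highest CVs on scaled counts were those of Coro1a at 52.6%, Tmsb10 at 50.9%, Ezr at 46.7%, Flna at 44.9% and Myl12a at 43.7%.

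As a group the members were high in replicate 1 and low in replicate 2. How far replicate 2 lay below replicate 3 depended on the scaling. Each member's scaled count was set against the geometric mean of its scaled counts in the remaining libraries, and the median log2 ratio was 0.28, -0.28 and 0.02 in replicates 1, 2 and 3, against 0.00, 0.00 and 0.01 over all kept genes. Over the kept genes with a mean of 100 TPM or more the medians were -0.05, 0.00 and 0.12. Between 2 libraries alone the members' medians in replicates 1 and 2 kept their signs but not their size: replicate 1 was at 0.33 against replicate 2 and at 0.17 against replicate 3, and replicate 2 was at -0.09 against replicate 3. On rescaled TPM the members' medians were 0.38, -0.37 and 0.11, against 0.10, -0.06 and -0.05 over kept genes. The highest library was replicate 1 for 21 of 40 members, against 34.7% of kept genes, replicate 2 for 4 members, against 32.3%, and replicate 3 for 15 members, against 33%. The lowest library was replicate 2 for 21 members, replicate 3 for 17 and replicate 1 for 2. The matching shares over all kept genes are not given here, so these counts describe the members alone. The value near 0 in replicate 3 had no stable sign: scaling by library totals alone gave -0.16, and leaving out replicate 2 gave -0.17. With library totals replicate 2 was at -0.17, so replicates 2 and 3 were then about equally low. Summed TPM of 7 neutrophil markers was 168, 34.9 and 326 in replicates 1, 2 and 3, and that of 6 platelet and megakaryocyte markers was 2455, 325 and 586, nearly all from Pf4. Both sums were lowest in replicate 2, as was the members' median log2 ratio. In the neutrophil list 3 of 7 genes were detected and the defining gene Ly6g was at 0. In the platelet list 3 of 6 genes were detected, with Gp9 at a mean of 0.11 TPM. Their part in the members' levels was not tested.

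**Figure D3:**
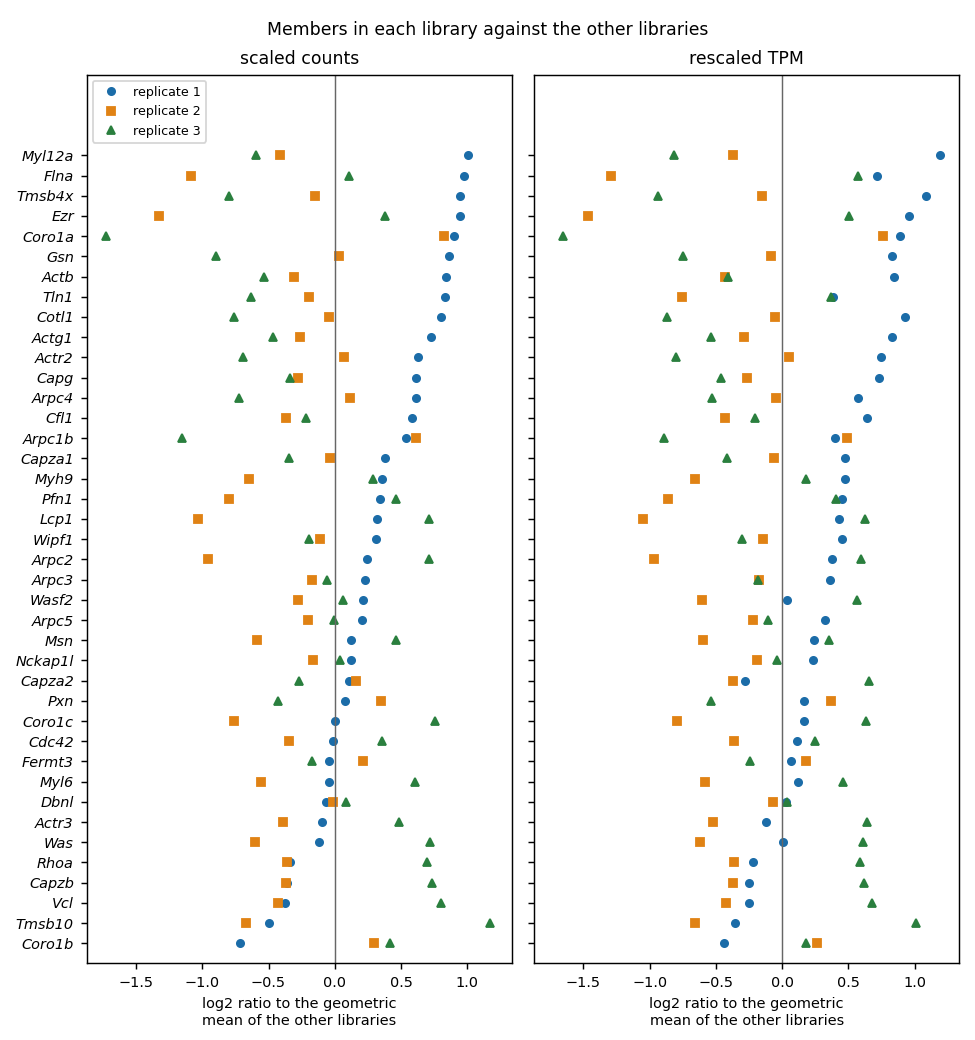
Log2 ratio of each member in each library against the geometric mean of the remaining libraries, on scaled counts (left) and on TPM rescaled to nuclear protein-coding genes (right), ordered by the value in replicate 1 on scaled counts. Replicate 1 lies right of 0 for most members and replicate 2 left of 0, with medians of 0.28 and -0.28 on scaled counts.

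The roles did not all follow the median. Both actins had a median of 0.78 in replicate 1, -0.28 in replicate 2 and -0.50 in replicate 3. The bundling and linker genes had 0.63, -1.06 and 0.42, and myosin II genes 0.36, -0.56 and 0.29, so these medians were low in replicate 2 alone. Within myosin II, Myl12a departed from the median, at 1.01, -0.41 and -0.60, and was lowest in replicate 3. Cdc42 and Rhoa had -0.17, -0.35 and 0.53, and the nucleation promoters had 0.17, -0.22 and 0.05, with a median CV of 12.2% on scaled counts.

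In replicate 3 the TPM of many members was divided differently among their annotated transcripts. The shares of a gene's TPM by transcript were compared as the summed absolute difference between libraries divided by 2, in percentage points. Replicates 1 and 2 differed by a median of 1.37 points over the members, against 2.76 points over detected genes with a mean of 100 TPM or more and at least 2 transcripts. Replicate 3 differed from the mean of the other libraries by a median of 8.29 points over the members, against 8.33 points over the same genes. It was over 20 points away in 13 of 40 members, against 38.3% of all detected genes with at least 2 transcripts. Among those at a mean of 100 TPM or more it was 12 of 35 members, against 32.4% of genes, whereas replicates 1 and 2 were over 20 points apart in 0 of 35 members, against 2.14% of genes. All 13 members were also over 20 points apart in the kallisto-format tables, and 18 members were in all. These shares of members and of other abundant genes lie close together. On shares of expected counts, which are not divided by length, only Wasf2, Actg1, Lcp1 and Arpc4 were over 20 points away. That was 4 of 40 members, against 23.3% of detected genes with at least 2 transcripts. At a mean of 100 TPM or more it was 3 of 35 members, against 19.4% of genes. On estimated counts of the kallisto-format tables these 4 were over 20 points away too. So were Capzb at 48.5, Pfn1 at 29.6, Actr3 at 24.9 and Cfl1 at 24.6 points, with no share over other genes given here.

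In 12 of these 13 members the transcript that gained most was shorter than the leading transcript of replicates 1 and 2, and 9 of the 13 were annotated as protein-coding. The 13 were picked on shares of TPM, in which a read on a shorter transcript weighs more, so the choice itself favours short gaining transcripts. Matching counts over other genes are not given here, so the counts of 12 and 9 describe these members alone. Wasf2 went furthest: Wasf2-202, of 2236 bases against 5642 for Wasf2-201, held 0.29%, 0.31% and 63.0% of the gene's TPM in replicates 1, 2 and 3. Capza2-206, of 517 bases against 2537 for Capza2-201, held 0%, 0% and 58.3%. In Actb the fragmentary Actb-208, of 930 bases and 3 exons against 1920 bases and 6 exons, held 0.28%, 0.27% and 25.6%. In the kallisto-format tables Capza2-206 already held 19.0% and 13.5% in replicates 1 and 2, against 59.5% in replicate 3, and Wasf2-202 held 5.70%, 0.16% and 63.3%. Fewer reads than TPM lay on the short transcripts: of the gene's expected counts in replicate 3, 39.4% were on Wasf2-202, 14.3% on Capza2-206 and 12.4% on Actb-208, while 60.5% stayed on Wasf2-201, 84.8% on Capza2-201 and 87.5% on Actb-201.

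Most of the other members of the 13 followed the same pattern with different kinds of transcript. Flna-206, annotated as a target of nonsense-mediated decay with 704 bases against 8345 for Flna-202, held 0.24%, 0% and 43.9%. Tln1-204, a processed transcript of 283 bases against 8393 for Tln1-201, held 0%, 1.11% and 36.1%. In reads these gains were small, since Flna-206 had 5.83% and Tln1-204 0.59% of the gene's expected counts in replicate 3, and 96.2% stayed on Tln1-201. Actg1-204 held 0%, 0% and 35.9% of TPM (34.3% of expected counts in replicate 3) and was nearly as long as Actg1-202, with 1827 against 1952 bases. Gains of 28.4 points in Arpc1b-202, a retained-intron transcript, of 28.0 in Cfl1-204, of 20.8 in Gsn-206 and of 17.1 in Actr3-205 were of the same kind. Coro1b differed. The retained-intron Coro1b-205 gained 11.6 points, but the leading Coro1b-201 also gained, at 53.8%, 53.9% and 60.4%. The shorter Coro1b-206, of 322 bases, held 14.4%, 9.40% and 0%. The mean transcript length of Coro1b was 1338, 1427 and 1487 bases in replicates 1, 2 and 3. In Lcp1, Lcp1-206 took 43.0%, 43.7% and 77.0%, at the cost of Lcp1-209, which starts 53997 bases upstream of it. Arpc4-204, the exception that was not shorter, was already the leading transcript and held 46.6%, 45.6% and 77.6%.

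**Figure D4:**
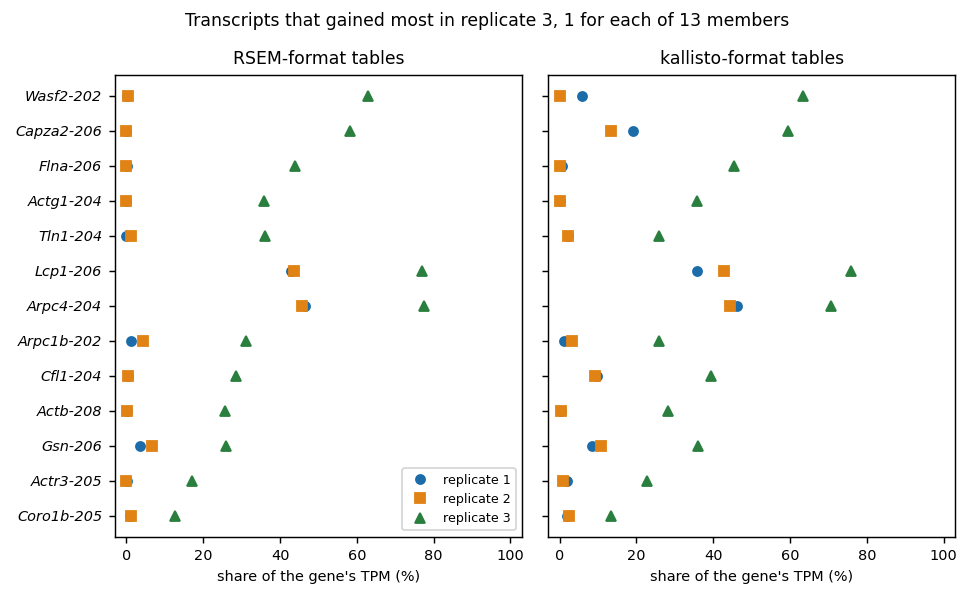
Share of the gene's TPM (percent) held in replicates 1, 2 and 3 by the transcript that gained most in replicate 3, for the 13 members over 20 points apart, in the RSEM-format tables (left) and the kallisto-format tables (right). In every row and both panels replicate 3 lies to the right of the other libraries, from Coro1b-205 with a gain of 11.6 points to Wasf2-202 with 62.7 points on the left.

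A read on a shorter transcript adds more TPM, and some of the 13 members took different values on counts and on TPM. Others were close on both in replicate 3, such as Cfl1 at -0.21 and -0.21 and Lcp1 at 0.71 and 0.62. The median log2 ratio of the 13 in replicate 3 was -0.27 on scaled counts and 0.18 on rescaled TPM, against 0.08 and 0.04 for the other 27 members. Tln1 was at -0.63 on counts and 0.37 on TPM, and Capza2 at -0.27 and 0.65. Tln1 had mean transcript lengths of 8240, 8186 and 3951 bases in replicates 1, 2 and 3, and Capza2 had 2514, 2515 and 1356 bases. For these genes the direction in replicate 3 depends on the unit. For Tmsb4x, Tmsb10, Coro1a, Cotl1 and Myl12a, whose transcript shares in replicate 3 were within 20 points of the others, it was the same on both.

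**Figure D5:**
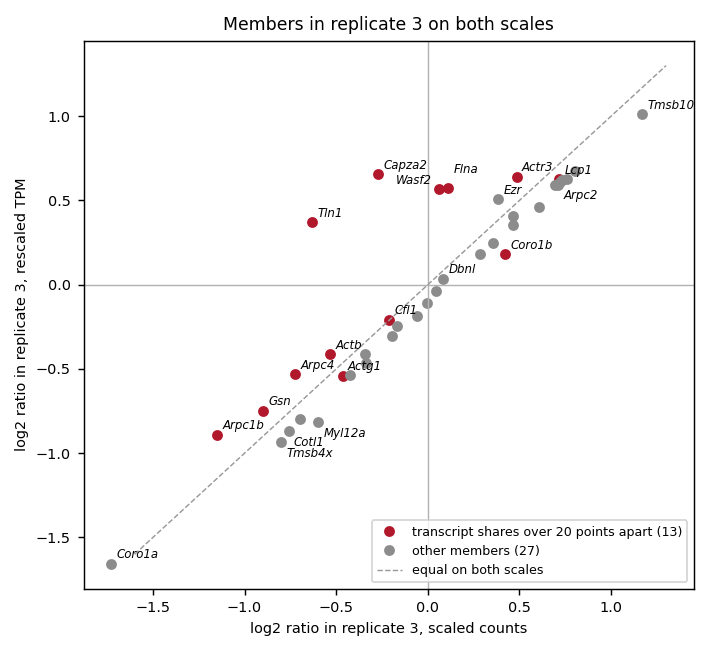
Log2 ratio of each member in replicate 3 against the geometric mean of the remaining libraries on scaled counts (horizontal) and on rescaled TPM (vertical), with the 13 members of shifted transcript shares in red and the other 27 in grey. Grey points lie along the line of equal values, and Tln1, Capza2, Wasf2 and Flna lie above it, with Tln1 at -0.63 and 0.37.

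Most members had 1 dominant transcript. The leading transcript held under 50% of the gene's TPM on average in only 2 of 40 members, against 19.2% of detected genes with at least 2 transcripts. In Wipf1 it held 38.2%, with Wipf1-201 at 44.1%, 39.1% and 31.2%, Wipf1-203 at 21.3%, 28.5% and 33.9% and Wipf1-205 at 31.2%, 29.2% and 23.02% in replicates 1, 2 and 3. In Flna it held 46.0%, with Flna-202 at 55.0%, 49.6% and 33.5%, but in the kallisto-format tables Flna-202 held 58.9% on average. The count there was also 2, with Dbnl, at 49.7%, in the place of Flna.

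Between the programs the members differed by an offset that other genes shared. In 0 of 40 members was the kallisto-format TPM over 1.5-fold from the RSEM-format TPM in the same direction in every library, against 3.33% of detected genes. The median kallisto-format over RSEM-format TPM of the members was 0.74, 0.74 and 0.94 in replicates 1, 2 and 3, against 0.75, 0.76 and 0.96 over detected genes. Flna had the lowest ratio of the members in every library, at 0.49, 0.53 and 0.73. The posterior SD stayed low for every member, the highest value being 1.2% of the count for Vcl in replicate 2, and 35, 35 and 37 members were under 0.1% in replicates 1, 2 and 3.

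The CArG box is the site of serum response factor, which with its MRTF partners senses monomeric actin and is known for driving actin genes. The promoters of 35 of the 40 members, from 250 bases before to 50 after the start, were read from RefSeq on build GRCm38.p6, and a CArG box (CC, then 6 letters that are A or T, then GG; the pattern reads the same on both strands) was found in 4 of them. The promoters of Actb, Cotl1, Coro1b, Nckap1l and Pxn were not analysed here. By promoter that was 4 of 45, or 8.89%, against 1.63% of all 32851 promoters and 1.54% of the 1170 promoters of genes at a mean of 100 TPM or more. The stretches that hold the box are shown in lower case with the box in capitals, 5′ to 3′ on the strand of the gene.
Actg1 (chr11:120348551-120348610, minus strand): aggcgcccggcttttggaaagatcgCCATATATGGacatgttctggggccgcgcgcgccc
Vcl (chr14:20929148-20929205, plus strand): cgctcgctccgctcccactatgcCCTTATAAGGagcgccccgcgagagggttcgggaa
Myl6 (chr10:128493025-128493084, minus strand): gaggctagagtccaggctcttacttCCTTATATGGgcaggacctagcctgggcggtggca
Arpc4 (chr6:113377863-113377897, plus strand): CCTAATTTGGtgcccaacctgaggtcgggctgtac
The boxes begin at positions -90 in Actg1, -227 in Vcl, -50 in Myl6 and -250 in Arpc4, counted from the start.

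These 4 genes differed widely in level, with Actg1 at 1634 TPM, Myl6 at 1413 TPM, Arpc4 at 318 TPM and Vcl at 10.3 TPM. They did not vary together between libraries. Actg1 and Arpc4 were highest in replicate 1 on scaled counts, whereas Myl6 and Vcl were highest in replicate 3. Srf, which encodes serum response factor, had 19.7, 12.8 and 17.8 TPM, Mrtfa 21.6, 43.5 and 43.0 TPM and Mrtfb 16.6, 12.7 and 18.8 TPM. A GC box (GGGCGG, searched on both strands; its end can overlap that of a CArG box) was in 77.8% of the members' 45 promoters, against 61.5% of promoters of genes at a mean of 100 TPM or more and 35.7% of all promoters. Such matches describe the letters of these windows and say nothing of binding.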

How the data were processed

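Expected counts and TPM per gene and transcript were deposited by the authors in RSEM-format tables, with the posterior SD of each gene's count as another value, and estimated counts and TPM per transcript were deposited in kallisto-format tables, per the file headers. Build mm10 and annotation M21 come from the deposited lists of files; for the aligner, program versions and strand setting, not given in the sources used here, nothing is assumed. Replicate numbers were taken from the labels. The 40 members and the gene lists were chosen with earlier results of these data known. Named genes were the 10 members of highest and 3 of lowest mean TPM, the 5 of highest and 5 of lowest CV, those over 2-fold apart between libraries or with a leading transcript under 50%, each complex side by side, and paralogs and extremes of the lists. Some entries name no gene (26345 in each library, 36595, 36370 and 45070 expected counts) and were left out of totals.

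Expected counts were scaled with edgeR 4.0.16 (TMM, filterByExpr; R 4.3.3), with DESeq2 1.42.0 size factors and plain totals as alternatives; scaling was tested on simulated data. Log2 ratios used a prior count of 0.5, and log2 of rescaled TPM a pseudocount of 0.5. Rescaling TPM to nuclear protein-coding genes, the 20-point threshold on transcript shares, and shares of expected counts by transcript were chosen after seeing the data. No model was fitted and no p-value computed, since the labels give 1 group. Coding sequences were aligned with Biopython from annotation M21. A few results on genes outside the members are not reported here.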

Additional observations from a re-analysis of the deposited data

How the results depend on the processing

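No paired analysis was possible because all 3 libraries belong to 1 group. The median of member means, 333 TPM, was 278 TPM in the kallisto-format tables and 423 TPM when rescaled to nuclear protein-coding genes, and the members' mean share of TPM, 3.03%, was then 3.84%. The median log2 ratio in replicate 3, 0.02, was -0.16 with library totals and ranged from -0.17 to 0.091 when another library was left out; the cause was not tested. Leaving out 1 library moved the median CV, 29.6%, to between 16.5% and 24.96%, and the 12 members over 2-fold apart to between 2 and 7, which fewer samples partly bring about. At 1.5-fold 28 members, and at 3-fold 1, were apart. Between programs, 1 member (Flna) was apart at the lower of the thresholds tried, and 0 to 1 at 1.5-fold with 1 library left out. Leading transcripts were under 40% in 1 member and under 60% in 7. Transcript shares of replicate 3 were over 10 points away in 20 members and over 30 points in 8, and on shares of expected counts over 20 points in 4. With the kallisto-format tables the mean TPM of 12 of 40 members moved by more than its SD, and with 1 library left out none of 120 values did. The detection of all 40 members held under every alternative run.

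With 3 libraries and no second group, a spread is known only roughly. In replicate 3 the TPM of several members rests in part on few reads placed on short annotated transcripts. Copies such as Myl12a and Myl12b share reads.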

Other observations

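Outside the members, several regulators of the same system also differed between the libraries. Rac2, the haematopoietic Rac, averaged 294 ± 197 TPM (SD, n = 3, as below), with its highest value, 517 TPM, in replicate 3, but its libraries were only 1.49-fold apart on scaled counts and its transcript shares in replicate 3 lay 42.4 points from the others. Myo5a, an unconventional myosin that carries vesicles, had 222, 394 and 660 TPM and was 2.36-fold apart on scaled counts. Tropomyosins, which coat filaments, were led by Tpm3 at 572 ± 122 TPM and Tpm4 at 161 ± 34.5 TPM, while Tpm2 averaged 0.29 TPM. Cap1, which recharges actin monomers after cofilin, averaged 489 ± 159 TPM, and Cap2 was at most 0.05 TPM.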
